A study of Sus scrofa with 4 samples.

Results

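Complement genes were followed through the cell types of regenerated pig bone. The members were C1QA, C1QB, C1QC, C1R, C1S, C3, CFD, C5AR1 and C3AR1, taken by symbol, and they made up 9 of the 20648 genes in each count table. The study compared regenerated bone of Bama mini-pigs aged 8 months given 1797 peptide (2 libraries) with the same tissue given control peptide (2 libraries). Cells had been freed with collagenase, red cells had been lysed, and transcripts were counted as unique molecular identifiers (UMIs) with a droplet 3′ method. The labels give no dose, bone site or time after the operation, and they do not say whether the 2 libraries of a group came from different animals, so p-values measure only the spread between these samples. The further control samples that the design text names were not analysed here.

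Complement is a cascade of plasma and tissue proteins that marks microbes and dying cells for removal. In the classical pathway C1q, built from the products of C1QA, C1QB and C1QC, recognises a target and carries the proteases C1r and C1s. Every route meets at C3, factor D (CFD) starts the amplification loop, and the fragments C3a and C5a act on the receptors C3AR1 and C5AR1. Liver supplies much of the plasma protein, whereas C1q is known as a product of tissue macrophages.

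The libraries held 12157 and 12665 kept cells of 1797 bone and 12726 and 11449 kept cells of control bone, with library 1 of each group given before library 2, here and in all values that follow. Total UMIs were between 87844389 and 98758412, median UMIs per kept cell between 3145 and 5341.5, and any 2 libraries shared 42 to 63 barcodes. The cells formed 42 clusters, of which 29 were named from marker genes into 17 classes written as "-like", and 13 clusters with 14.2% of the cells stayed unnamed. The names rest on clusters rebuilt from the counts. Neutrophil-like cells made up 17.9% and 40.9% of cells in 1797 bone, against 15.7% and 34.6% in control bone, so this share differed more between library 1 and library 2 than between the groups. Levels below are UMIs per 1000000 (CPM) of the summed counts of a class in a library, and they are compared within a gene only, because 3′ counting efficiency differs between genes.

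The members had different leading classes. Among the named classes, the macrophage-like class led for the 3 C1q chains and C3, stromal or osteoblast-like cells and pericyte-like cells for C1R and C1S, monocyte-like cells for CFD, and neutrophil-like cells for C5AR1 and C3AR1. Between the groups, edgeR's quasi-likelihood test called 0 of 100 pairs of a member and a tested class at an adjusted p under 0.05, against 0.000748% of 133704 pairs over all genes, and 21 of the 100 had an unadjusted p under 0.05, against 4.84% over all genes. DESeq2 called 3 of them, against 0.24% over all genes. The lowest adjusted p of a member from edgeR was 0.506. All pairs come from the same 4 libraries. CFD gave 6 of the 21 low unadjusted p-values, and C1QA and C1QB gave 4 each. Counts over classes, here and below, are thus not counts of separate results.

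**Figure D1:**
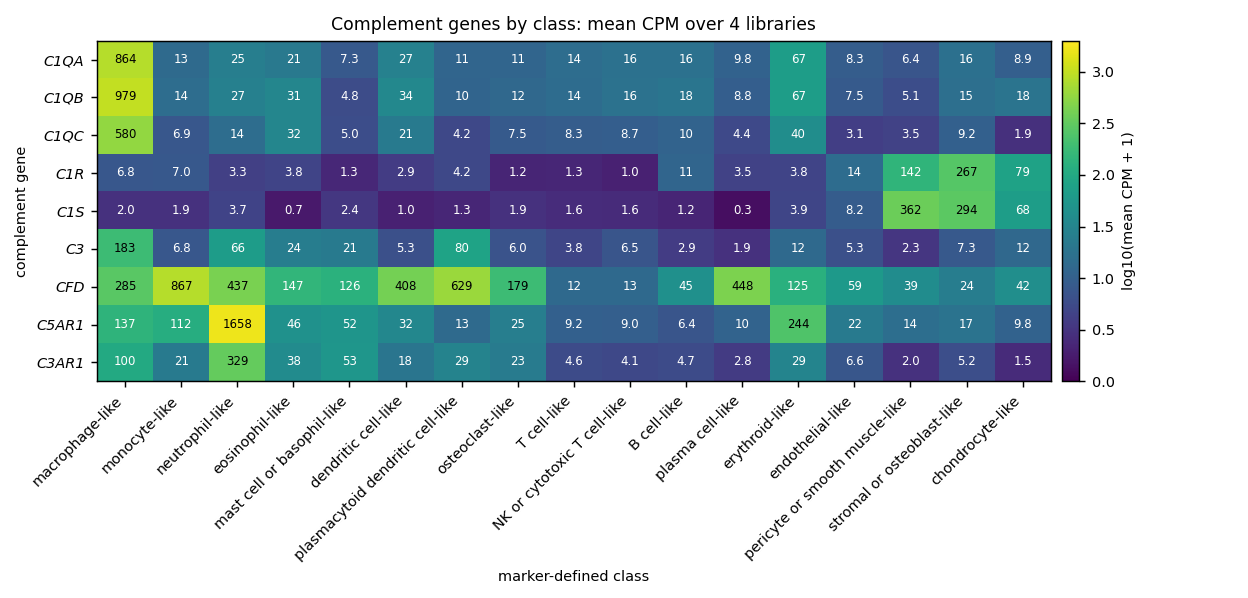
Mean level over the 4 libraries of each of the 9 genes (lines) in each of the 17 named classes (columns), written in CPM and shaded by log10(mean CPM + 1). C1QA, C1QB, C1QC and C3 were highest in the macrophage-like column, and C5AR1 and C3AR1 in the neutrophil-like column.

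C1q RNA was concentrated in macrophage-like cells. This class held 81.4 ± 7.81% of C1QA UMIs, 82.1 ± 7.20% of C1QB UMIs and 82.9 ± 7.14% of C1QC UMIs (SD, n = 4 libraries), with a mean of 4.16% of cells in 1797 bone and 4.87% in control bone. With coarser clusters (Leiden resolution 0.5) the class so named held 23.7%, 22.5% and 21.2% of them, so these shares depend on the clustering. Its mean level was 864 ± 368 CPM for C1QA, 979 ± 298 CPM for C1QB and 580.0 ± 188 CPM for C1QC. The next named class, erythroid-like cells, averaged 67.2 ± 17.4, 66.8 ± 21.7 and 40.3 ± 12.6 CPM for the 3 chains. With cells thinned to 1000 UMIs, a C1QA UMI was found in 45.8 ± 8.36% of macrophage-like cells, against 1.38 ± 0.890% of T cell-like cells, which are not known to make C1q. Median depths before thinning were 18874 and 7275 UMIs in the cells with at least 1000 UMIs, and 11808 and 7196 UMIs in all cells of those classes. Median depths given below beside thinned shares of a class likewise cover only cells with at least 1000 UMIs. Without thinning the C1QA shares were 79.0% and 7.27% of all cells of those classes. Thinning left out 111 macrophage-like cells of the 1797 libraries and 404 of the control libraries for having fewer UMIs, and likewise 140 and 62 T cell-like, 625 and 194 neutrophil-like, 33 and 10 stromal or osteoblast-like and 19 and 0 monocyte-like cells. Osteoclast-like cells, which share a myeloid origin with macrophages, had a thinned C1QA share of 0.481 ± 0.962%, below that of T cell-like cells. This class held only 60 and 110 cells of the 1797 libraries and 38 and 52 of the control libraries. It had 247 UMIs of the 3 chains without thinning, so the thinned share does not decide whether these cells carry C1q at a low level.

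C1QA, C1QB and C1QC lie side by side on chromosome 6, at 80586259 to 80589213, 80601680 to 80606076 and 80592591 to 80597464 in RefSeq's annotation of Sscrofa11.1, with C1QC between the other chains. Over the 52 sums of 13 classes and 4 libraries, log2 levels of C1QA and C1QB had r = 0.965, those of C1QA and C1QC r = 0.948, and those of C1QB and C1QC r = 0.966, a description over sums that share libraries. In the macrophage-like class the UMIs of the 3 chains divided into 35.3% C1QA, 40.7% C1QB and 24.0% C1QC. In T cell-like cells the same division was 37.5%, 39.3% and 23.1%, and in B cell-like cells 35.0%, 42.1% and 22.9%. The mix was similar in these 3 classes although their C1q levels differed many fold.

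The macrophage-like class joined a deep and a shallow cluster that carried C1q at very different levels. The deep cluster held 1349 cells with a median of 23749 UMIs, and was led by the scavenger receptor MSR1, CLU and the mannose receptor MRC1. The shallow cluster held 857 cells with a median of 861 UMIs, and was led, beside C1q itself, by APOE, CD5L, the haemoglobin receptor CD163 and SELENOP. C1QA was at 798 and 468 CPM in the 1797 libraries and 508 and 523 CPM in the control libraries in the deep cluster. In the shallow cluster it was at 4884 and 8041 CPM in the 1797 libraries and 4637 and 11968 CPM in the control libraries. The shallow cluster stood above the deep one in all 4 libraries, and in both clusters the groups overlapped. At 1000 UMIs a cell, 86.8 ± 6.003% of shallow cells and 33.8 ± 2.81% of deep cells had a C1QA UMI. Pooled over libraries, 84.2% of shallow cells and 25.1% of deep cells had both C1QA and C1QB. Thinning left out 111 of 232 shallow cells of the 1797 libraries and 404 of 625 of the control libraries, but 0 deep cells. The shallow shares thus cover only those shallow cells with at least 1000 UMIs.

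The shallow cluster took a different share of the class in each library. It made up 33.5% and 13.7% of macrophage-like cells in 1797 bone, against 34.8% and 70.6% in control bone. It gave 17.3% and 10.8% of the class's C1QA UMIs in 1797 bone, against 24.7% and 64.1% in control bone. Control library 2 was far above the other 3 in both shares.

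**Figure D2:**
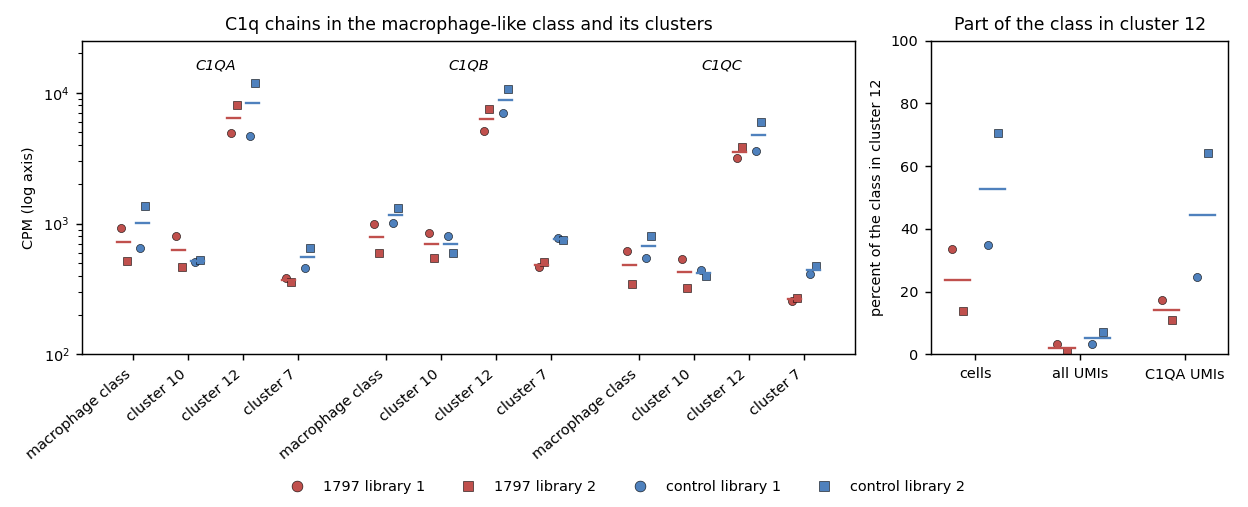
Left, C1QA, C1QB and C1QC in CPM (log axis) in the whole macrophage-like class, its deep cluster 10, its shallow cluster 12 and the unnamed cluster 7. Right, the percentage of the class's cells, of all its UMIs and of its C1QA UMIs that lay in cluster 12. Each point is a library, 1797 peptide left of control peptide, with a line at the mean of a group, and C1QA in cluster 12 lay between 4637 and 11968 CPM.

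In the class as a whole C1QA was at 933 and 521 CPM in the 1797 libraries and 651 and 1353 CPM in the control libraries. The groups overlapped, with control library 2 highest. edgeR gave a log2 fold change of 1797 over control of -0.41 (SE 0.41, adjusted p = 0.746), which turned to 0.21 without control library 2 and was 0.35 in the deep cluster alone. C1QB was at 985 and 596 CPM in the 1797 libraries and 1013 and 1322 CPM in the control libraries, both 1797 libraries lying below both controls, as for 25.2% of all genes tested in this class. Its log2 fold change was -0.51 (SE 0.26, edgeR adjusted p = 0.573). C1QC was at 622 and 347 CPM in the 1797 libraries and 549 and 802 CPM in the control libraries, which overlapped, with a log2 fold change of -0.43 (SE 0.31, edgeR adjusted p = 0.661). None of the 3 chains passed the test.

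C1q was also read in cells that were not named macrophages. An unnamed shallow cluster of 2155 cells was led by FABP4, LGALS3 and the osteoclast genes ATP6V0D2 and ACP5, and its markers did not part osteoclasts from macrophages. Its C1QB level was 464 and 507 CPM in the 1797 libraries and 773 and 745 CPM in the control libraries, without overlap. C1QC was at 258 and 269 CPM there in the 1797 libraries and 415 and 476 CPM in the control libraries. C1QA was at 382 and 359.8 CPM in the 1797 libraries and 456 and 646 CPM in the control libraries. All 3 chains were thus lower in both 1797 libraries, as were 24.5% of all genes tested in this cluster. The log2 fold changes were -0.41 for C1QA, -0.51 for C1QB and -0.61 for C1QC, each with an edgeR adjusted p of 0.999.

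Erythroid-like and dendritic cell-like cells came next among the tested classes for C1QA and C1QB. In erythroid-like cells, of which control library 2 held only 45, C1QA was at 82.6 and 60.8 CPM in the 1797 libraries and 45.5 and 79.8 CPM in the control libraries. C1QB was at 81.2 and 35.0 CPM in the 1797 libraries and 71.2 and 79.8 CPM in the control libraries, and C1QC at 58.2 and 30.4 CPM in the 1797 libraries and 32.7 and 39.9 CPM in the control libraries. The groups overlapped for each chain, with log2 fold changes of 0.36, -0.26 and 0.41 (SE 0.62, 0.68 and 0.68, edgeR adjusted p = 1.00 each), and each sign turned under at least 1 alternative. In dendritic cell-like cells C1QA was at 43.1 and 16.5 CPM in the 1797 libraries and 17.04 and 33.2 CPM in the control libraries, and C1QB at 45.03 and 16.1 CPM in the 1797 libraries and 21.6 and 52.9 CPM in the control libraries. These overlapped as well, with log2 fold changes of 0.28 and -0.25 (SE 0.50 and 0.56, edgeR adjusted p = 0.972 and 0.976), and the sign for each turned when single libraries were left out. C1QC in eosinophil-like cells did not pass the low-count filter and has no test.

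Over the tested classes C1QB lay below both control libraries in both 1797 libraries in 9 of the 12 classes where it was tested, C1QA in 6 of 12 and C1QC in 5 of 11. Over all members 32 of 100 pairs of a member and a class lay below both controls and 8 lay above, against 19.3% below and 14.3% above over all genes in the tested classes. The pairs share their libraries and the C1q chains go together, so these are not separate results. In T cell-like cells C1QB was at 8.46 and 5.93 CPM in the 1797 libraries and 19.3 and 21.8 CPM in the control libraries, with a log2 fold change of -1.50 (SE 0.23, edgeR adjusted p = 0.607, DESeq2 adjusted p = 0.000383). In B cell-like cells C1QB was at 11.96 and 6.96 CPM in the 1797 libraries and 20.9 and 33.6 CPM in the control libraries, with a log2 fold change of -1.45 (SE 0.36, edgeR adjusted p = 0.645, DESeq2 adjusted p = 0.0315). DESeq2 thus called C1QB in both lymphocyte classes and edgeR in neither; these pairs are named because of those calls, after their values were seen.

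T cells and B cells are not known as makers of C1q. A C1QB UMI was found in 1.32 ± 0.584% of T cell-like cells at 1000 UMIs, with a chain mix close to that of the macrophage-like class. The summed level of the 13 macrophage markers in T cell-like cells was 135 and 95.1 CPM in the 1797 libraries and 131 and 132 CPM in the control libraries. In B cell-like cells it was 115 and 67.3 CPM in the 1797 libraries and 106 and 135 CPM in the control libraries. The marker sums were low in 1797 library 2 and alike in the other libraries, a narrower spread than that of C1QB. All 13 markers had UMIs in both classes, and their part in the C1QB difference was not tested.

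All 9 members had a negative fold change in T cell-like cells, as had 50.4% of all genes, with a median log2 fold change of -0.82 against -0.0028 over all genes, and 4 of 9 lay below both controls, against 18.7% of all genes. In B cell-like cells 7 of 9 were negative, against 52.7% of all genes, and 4 lay below both controls, against 24.9% of all genes. In the macrophage-like class all 9 were negative as well, against 49.5% of all genes, with a median of -0.41 against 0.0041 over all genes, and 5 of 9 lay below both controls, against 25.2% of all genes. Without the shallow cluster, 6 of the 9 were negative, against 49.4% of all genes. In stromal or osteoblast-like cells 7 of 9 were positive, against 46.8% of all genes.

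C1R and C1S, the proteases that C1q carries, were stromal genes. They lie together on chromosome 5, C1R at 63644097 to 63655149 and C1S at 63670309 to 63681466. Stromal or osteoblast-like cells, named by 11 markers and led by IBSP, COL1A1, COL1A2 and SPARC, held 60.3 ± 19.1% of C1R UMIs and 65.9 ± 6.63% of C1S UMIs. Pericyte or smooth muscle-like cells held 8.02 ± 4.97% of C1R UMIs, close to B cell-like cells at 8.58 ± 6.91%, and 19.2 ± 7.88% of C1S UMIs. C1R averaged 267 ± 76.1 CPM in the stromal class, 142 ± 44.4 CPM in the pericyte class and 79.0 ± 71.3 CPM in chondrocyte-like cells. C1S averaged 362 ± 129.6 CPM in the pericyte class, 294 ± 56.8 CPM in the stromal class and 68.4 ± 31.1 CPM in chondrocyte-like cells. The pericyte class, with 16 cells in 1797 library 2, and the chondrocyte class, with 2 in control library 1, were too small to test.

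At 1000 UMIs a C1R UMI was found in 19.5 ± 7.38% of stromal cells and 18.6 ± 10.7% of pericyte-like cells, against 0.162 ± 0.138% of T cell-like cells. A C1S UMI was found in 19.99 ± 2.13% of stromal cells and 20.2 ± 2.75% of pericyte-like cells, against 0.130 ± 0.0895% of T cell-like cells. Median depths were 24912.5 UMIs in stromal, 14552 in pericyte-like and 7275 in T cell-like cells. Without thinning, C1R was found in 72.7%, 66.0% and 0.961% of those cells and C1S in 71.4%, 81.5% and 1.22%. Both genes stood far above the T cell-like share.

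The balance of the proteases differed between classes. C1R gave 50.7% of the joint C1R and C1S UMIs in the stromal class and 29.5% in the pericyte class, pooled over libraries. In B cell-like cells it gave 90.9% of 473 UMIs, in macrophage-like cells 78.0% of 309 and in monocyte-like cells 80.6% of 340, whereas in T cell-like cells it gave 44.1% of 211. C1R in B cell-like cells averaged 10.9 ± 3.55 CPM, against 1.26 ± 0.535 CPM in T cell-like cells, and stood above them in each of the 4 libraries. At 1000 UMIs it was found in 0.642 ± 0.225% of B cell-like cells, whose median depth was 8763 UMIs.

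Within the stromal class C1R and C1S varied with the sub-cluster, given here from UMIs pooled over libraries and with no test. The 52 cells led by the mature osteoblast genes BGLAP, IFITM5 and DMP1 had 112 CPM of C1R and 136 CPM of C1S. The 76 cells led by CXCL12, LAMA2 and LEPR had 264 CPM of C1R and 494 CPM of C1S. Other cells with DMP1 and BGLAP among their leading genes differed, with 336 and 407 CPM in 141 cells and 119 and 84.9 CPM in 81 cells. C1R was highest, at 477 CPM, in 73 cells of which 69 came from 1797 library 1, with C1S at 344 CPM.

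In the stromal class C1S was at 344 and 339 CPM in the 1797 libraries and 229 and 263 CPM in the control libraries. Both 1797 libraries lay above both controls, as did 14.5% of all genes tested there, and no other member did. The log2 fold change was 0.46 (SE 0.25, edgeR adjusted p = 1.00). C1R was at 333 and 256 CPM in the 1797 libraries and 164 and 315 CPM in the control libraries, which overlapped, with control library 1 lowest. Its log2 fold change was 0.28 (SE 0.37, edgeR adjusted p = 1.00) and turned to -0.11 without control library 1. The 1797 libraries held 336 and 45 stromal cells and the control libraries 117 and 221.

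Outside the stroma C1R was read at low levels. In endothelial-like cells C1R was at 7.13 and 33.9 CPM in the 1797 libraries and 6.34 and 6.71 CPM in the control libraries. The 51 cells of 1797 library 2 set this value apart, and the log2 fold change was 1.48 (SE 0.75, edgeR adjusted p = 1.00). C1S was at 8.16 and 15.1 CPM there in the 1797 libraries and 0 and 9.58 CPM in the control libraries, which overlapped, with a fitted log2 fold change of 0.78 (SE 0.87, edgeR adjusted p = 1.00). In B cell-like cells C1R was at 13.3 and 14.5 CPM in the 1797 libraries and 7.59 and 8.09 CPM in the control libraries. Both 1797 libraries lay above both controls, as did 14.5% of all genes tested there. The log2 fold change was 0.89 (SE 0.23, edgeR adjusted p = 0.645). C1S in erythroid-like cells did not pass the low-count filter and has no test.

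C3, the component on which all routes converge, was spread over more cell types. It lies on chromosome 2 at 72431470 to 72471622. The macrophage-like class held 59.4 ± 5.23% of C3 UMIs at 183 ± 47.7 CPM, the neutrophil-like class 18.4 ± 11.5% at 65.6 ± 37.3 CPM, and the plasmacytoid dendritic cell-like class 6.39 ± 4.08% at 80.3 ± 59.4 CPM. At Leiden resolution 0.5 the macrophage-like class held 6.66% of C3 UMIs, so its lead depends on the clustering. At 1000 UMIs a C3 UMI was found in 16.3 ± 5.16% of macrophage-like, 8.53 ± 4.02% of plasmacytoid dendritic cell-like and 6.40 ± 2.99% of neutrophil-like cells, against 0.392 ± 0.113% of T cell-like cells. Median depths were 18874, 21902, 1814 and 7275 UMIs, and without thinning the shares were 37.0%, 48.1%, 10.7% and 2.57%. As with C1q, the shallow macrophage cluster carried more C3, at 656 and 834 CPM in the 1797 libraries and 1144 and 247 CPM in the control libraries, and the deep cluster less, at 205 and 122 CPM in the 1797 libraries and 192 and 153 CPM in the control libraries.

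Neutrophil-like cells carried more C3 in 1797 bone, by the largest fitted fold of any member in its leading classes, without passing the test. C3 was at 112 and 78.8 CPM in the 1797 libraries and 33.8 and 37.2 CPM in the control libraries. Both 1797 libraries lay above both controls, as did 6.99% of all genes tested in this class. The log2 fold change was 1.60 (SE 0.40, edgeR unadjusted p = 0.00606, adjusted p = 1.00). The same order was seen within the 3 largest neutrophil clusters. C3 was at 119 and 105 CPM in the 1797 libraries and 39.4 and 63.5 CPM in the control libraries in the largest of them, led by CXCL8 and TREM1. It was at 128 and 106 CPM in the 1797 libraries and 24.9 and 68.6 CPM in the control libraries in the cluster led by IFIT2. In the cluster led by S100A12, MMP8 and S100A9 it was at 87.9 and 59.2 CPM in the 1797 libraries and 33.0 and 25.5 CPM in the control libraries. No library of 1 group overlapped with the other group in any of the 3. These clusters are parts of the same class and share its libraries, so they are not separate results. The share of all genes with this order was not computed within them.

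Macrophage genes were read in these cells too. C1QA in neutrophil-like cells was at 18.6 and 14.6 CPM in the 1797 libraries and 30.2 and 35.3 CPM in the control libraries. The summed level of the 13 macrophage markers, all of which had UMIs, was 588 and 319 CPM in the 1797 libraries and 351 and 381 CPM in the control libraries, which overlapped, with 1797 library 1 highest. Their part in the C3 difference was not tested.

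C3 in the macrophage-like class was at 220.2 and 127 CPM in the 1797 libraries and 225 and 159.6 CPM in the control libraries, overlapping. The log2 fold change was -0.096 (SE 0.29, edgeR adjusted p = 0.929). Its sign turned when 1797 library 2 or control library 1 was left out (0.22 and 0.17) and with doublets kept (0.30). It also turned in the class so named at Leiden resolution 0.5 (0.10), which was not the same set of cells. In plasmacytoid dendritic cell-like cells it was at 161 and 33.9 CPM in the 1797 libraries and 88.4 and 37.6 CPM in the control libraries. Here library 1 of each group was the higher one, and the log2 fold change of 0.60 (SE 0.68, edgeR adjusted p = 0.950) turned to -0.92 without 1797 library 1. In monocyte-like cells, named after their values were seen, C3 was low, at 11.5 and 7.08 CPM in the 1797 libraries and 5.42 and 3.05 CPM in the control libraries. Both 1797 libraries lay above both controls, as did 14.5% of all genes tested there, and edgeR called 0 members in this class.

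**Figure D3:**
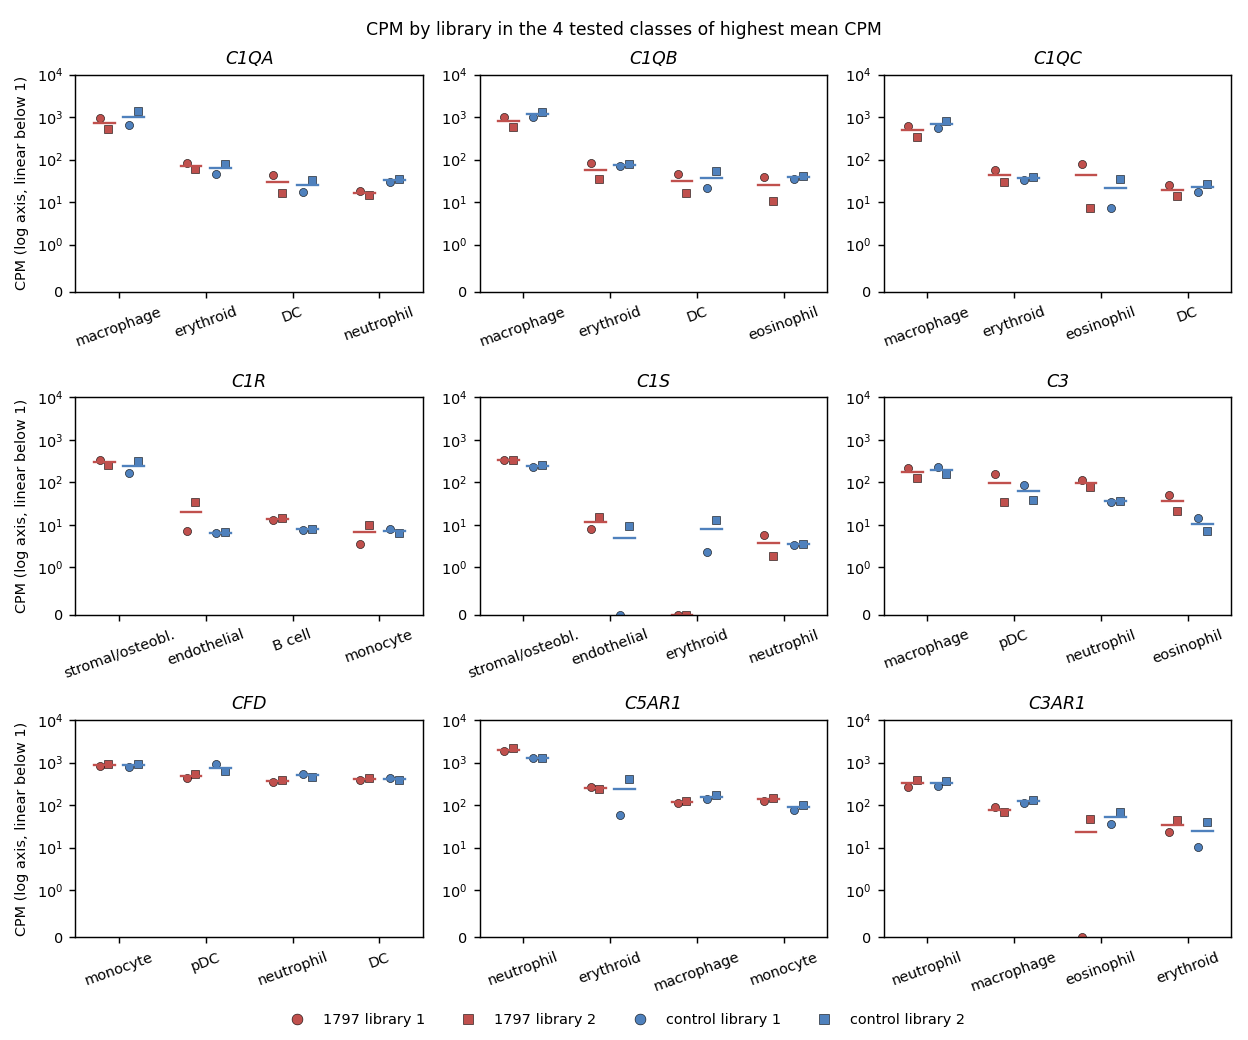
Level in CPM (log axis, linear below 1) of each member in the 4 tested classes where its mean was highest (DC, dendritic cell; pDC, plasmacytoid dendritic cell; all classes named as "-like"). Each point is a library, 1797 peptide left of control peptide, with a line at the mean of a group. C5AR1 in neutrophil-like cells was above both controls in both 1797 libraries, whereas CFD in monocyte-like cells overlapped between the groups.

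CFD, the serine protease factor D, was a gene of monocytes and of several other blood-derived classes. It lies on chromosome 2 at 77509792 to 77511988. Monocyte-like cells held 39.0 ± 4.64% of its UMIs at 867 ± 72.6 CPM. Plasmacytoid dendritic cell-like cells averaged 629 ± 202 CPM, plasma cell-like cells 448 ± 219 CPM, neutrophil-like cells 437 ± 81.6 CPM and dendritic cell-like cells 408 ± 27.8 CPM, spreads that overlap with their neighbours in the order. Macrophage-like cells averaged 285 ± 58.8 CPM and T cell-like cells 12.3 ± 6.78 CPM. At 1000 UMIs a CFD UMI was found in 57.7 ± 3.80% of monocyte-like cells, against 1.28 ± 0.754% of T cell-like cells, at median depths of 16601 and 7275 UMIs and with 95.8% and 8.77% without thinning. In mouse CFD is known as adipsin, an abundant product of fat cells.

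CFD in monocyte-like cells was nearly level, at 813 and 918 CPM in the 1797 libraries and 797 and 940.0 CPM in the control libraries. The groups overlapped, and the log2 fold change was 0.060 (SE 0.17, edgeR adjusted p = 0.964), turning to -0.026 without 1797 library 2 and just below 0 without control library 1. In plasmacytoid dendritic cell-like cells it was at 446 and 537 CPM in the 1797 libraries and 912 and 620.5 CPM in the control libraries, both 1797 libraries below both controls, as for 17.2% of all genes there. The log2 fold change was -0.66 (SE 0.24, edgeR adjusted p = 0.890). In neutrophil-like cells it was at 360.2 and 382 CPM in the 1797 libraries and 538 and 467 CPM in the control libraries. Both 1797 libraries were again below both controls, as for 16.4% of all genes there. The log2 fold change was -0.29 (SE 0.39, edgeR adjusted p = 1.00). Both 1797 libraries lay below both controls in 8 of the 13 classes tested for CFD, against 19.3% of pairs over all genes.

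CFD was also lower in both 1797 libraries in T cell-like cells, where little of it was read, as were 18.7% of all genes tested there. In T cell-like cells it was at 5.41 and 8.32 CPM in the 1797 libraries and 14.7 and 20.6 CPM in the control libraries, with a log2 fold change of -1.33 (SE 0.30, edgeR adjusted p = 0.952, DESeq2 adjusted p = 0.0492), another pair named for its DESeq2 call after its values were seen. The summed level of the 11 neutrophil markers in T cell-like cells was 56.9 and 175 CPM in the 1797 libraries and 60.4 and 513 CPM in the control libraries, high in library 2 of each group. For the 10 markers of monocytes, the leading class for CFD, it was 366 and 587 CPM in the 1797 libraries and 444 and 629 CPM in the control libraries, which overlapped. All 11 neutrophil and 10 monocyte markers had UMIs there. The part of neutrophil or monocyte RNA in the CFD difference was not tested.

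C5AR1, the C5a receptor that draws and arms neutrophils, was a neutrophil gene. It lies on chromosome 6 at 53097162 to 53111563, next to C5AR2. Neutrophil-like cells held 76.0 ± 8.17% of its UMIs at 1658 ± 457 CPM, ahead of erythroid-like cells at 244 ± 148, macrophage-like cells at 137 ± 26.2 and monocyte-like cells at 112 ± 30.6 CPM, and these last 3 overlapped. The erythroid-like class included a cluster of 78 cells with neutrophil genes such as TGM3 and GP6 among its leading genes and C5AR1 at 1779 and 833 CPM in the 1797 libraries and 582 and 1823 CPM in the control libraries. The summed level of 11 neutrophil markers in the whole class, all with UMIs, was 478 and 1651 CPM in the 1797 libraries and 208 and 1802 CPM in the control libraries, and its part in the C5AR1 level was not tested. At 1000 UMIs a C5AR1 UMI was found in 64.1 ± 7.02% of neutrophil-like cells, against 0.870 ± 0.657% of T cell-like cells, at median depths of 1814 and 7275 UMIs and with 72.9% and 5.44% without thinning.

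The receptor was uneven within the neutrophil-like class. In the 3 clusters led by CXCL8 and TREM1, by IFIT2, and by S100A12 and MMP8 it averaged 1996 ± 652, 1983 ± 530.1 and 1857 ± 459 CPM. In the cluster led by the secondary granule genes LTF, PGLYRP1 and CRISP3 it averaged 145 ± 98.9 CPM, and in the cluster led by the antimicrobial peptide genes NPG4, PR39 and PMAP-23 it averaged 45.1 ± 36.9 CPM. C3AR1 showed another order over the same clusters, at 214 ± 67.3, 461 ± 136 and 554 ± 92.5 CPM in the first 3, then 707 ± 211 CPM in the LTF cluster and 222 ± 60.7 CPM in the NPG4 cluster. Granule genes of this kind are known to be transcribed while neutrophils mature in the marrow.

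**Figure D4:**
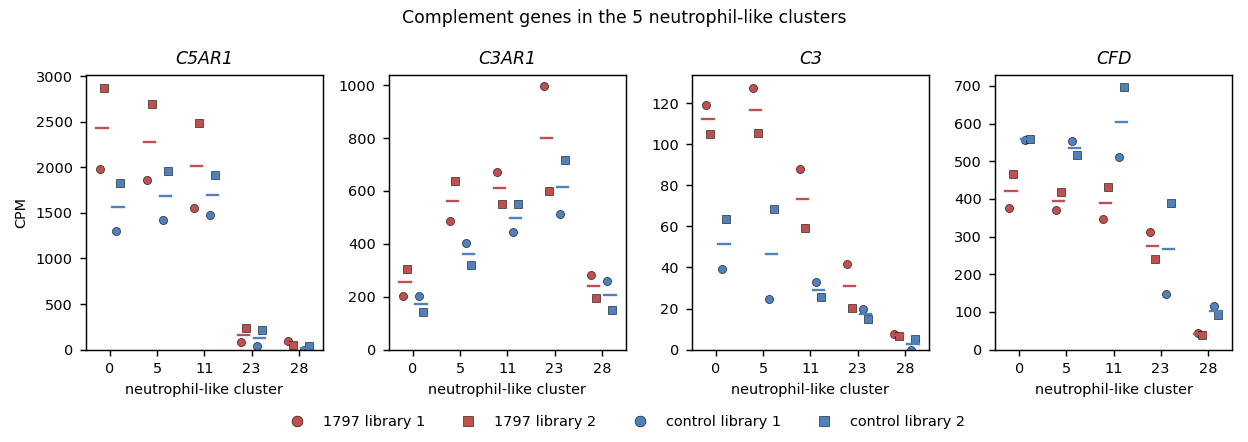
C5AR1, C3AR1, C3 and CFD in CPM in the 5 clusters of the neutrophil-like class (0 led by CXCL8 and TREM1, 5 by IFIT2, 11 by S100A12, 23 by LTF, 28 by NPG4). Each point is a library, 1797 peptide left of control peptide, with a line at the mean of a group, and C5AR1 was at most 239 CPM in clusters 23 and 28 and at least 1306 CPM in the others.

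C5AR1 in neutrophil-like cells was at 1851 and 2214 CPM in the 1797 libraries and 1298 and 1270.1 CPM in the control libraries. Both 1797 libraries lay above both controls, as did 6.99% of all genes tested in this class. The log2 fold change was 0.82 (SE 0.42, edgeR adjusted p = 1.00). Within the largest cluster the same order held, at 1979 and 2874 CPM in the 1797 libraries and 1306 and 1826 CPM in the control libraries. It did not hold in the IFIT2 cluster, at 1859 and 2696 CPM in the 1797 libraries and 1419 and 1956 CPM in the control libraries, nor in the S100A12 cluster, at 1554 and 2483 CPM in the 1797 libraries and 1475 and 1915 CPM in the control libraries. The largest cluster made up 89.0% and 67.8% of neutrophil-like cells in 1797 bone, against 66.9% and 38.7% in control bone. The LTF cluster, low in C5AR1, gave 1.28% and 8.67% of the class's UMIs in 1797 bone, against 2.84% and 17.3% in control bone. The NPG4 cluster, also low in C5AR1, gave 3.59% and 12.3% in 1797 bone, against 0.965% and 18.1% in control bone. The part of this make-up in the C5AR1 difference was not tested.

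Elsewhere C5AR1 took both directions. In monocyte-like cells, named after their values were seen, it was at 124 and 147 CPM in the 1797 libraries and 76.3 and 101 CPM in the control libraries, both 1797 libraries above both controls, as for 14.5% of all genes there, with a log2 fold change of 0.68 (SE 0.19, edgeR adjusted p = 0.688). In macrophage-like cells it was at 113 and 124 CPM in the 1797 libraries and 140.0 and 173 CPM in the control libraries, both below both controls, as for 25.2% of all genes there. The log2 fold change was -0.34 (SE 0.17, edgeR adjusted p = 0.564). In the class so named at Leiden resolution 0.5, which was not the same set of cells, it was 0.10. In erythroid-like cells it was at 265 and 234 CPM in the 1797 libraries and 58.4 and 419 CPM in the control libraries, which overlapped. The log2 fold change there was 0.31 (SE 0.85, edgeR adjusted p = 1.00) and turned to -0.50 without control library 1.

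C3AR1, the C3a receptor, lies on chromosome 5 at 63088778 to 63098750. Neutrophil-like cells held 57.2 ± 16.0% of its UMIs at 329 ± 65.6 CPM and macrophage-like cells 24.4 ± 12.1% at 100.3 ± 28.8 CPM, with every neutrophil-like value above every macrophage-like one. At 1000 UMIs a C3AR1 UMI was found in 21.7 ± 3.88% of neutrophil-like and 13.9 ± 5.21% of macrophage-like cells, against 0.455 ± 0.243% of T cell-like cells, at median depths of 1814, 18874 and 7275 UMIs and with 32.9%, 46.6% and 3.33% without thinning. In neutrophil-like cells at 1000 UMIs, pooled over libraries, 14.6% had both receptors, 50.3% C5AR1 alone and 8.30% C3AR1 alone. In macrophage-like cells 2.48% had both, 11.6% C5AR1 alone and 10.6% C3AR1 alone.

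C3AR1 in macrophage-like cells was at 88.9 and 67.4 CPM in the 1797 libraries and 110.3 and 135 CPM in the control libraries. Both 1797 libraries lay below both controls, as did 25.2% of all genes tested there. The log2 fold change of -0.59 (SE 0.19, edgeR unadjusted p = 0.0227) had an edgeR adjusted p of 0.506. In the deep cluster alone it was -0.57 (SE 0.18, edgeR adjusted p = 0.485), from 87.4 and 66.3 CPM in the 1797 libraries and 110.2 and 128 CPM in the control libraries. C3AR1 in neutrophil-like cells was at 266 and 401 CPM in the 1797 libraries and 282 and 368 CPM in the control libraries. The groups overlapped, library 2 of each group was the higher one, and the log2 fold change was 0.21 (SE 0.39, edgeR adjusted p = 1.00), turning to -0.15 without 1797 library 2. C3AR1 in eosinophil-like cells did not pass the low-count filter and has no test.

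**Figure D5:**
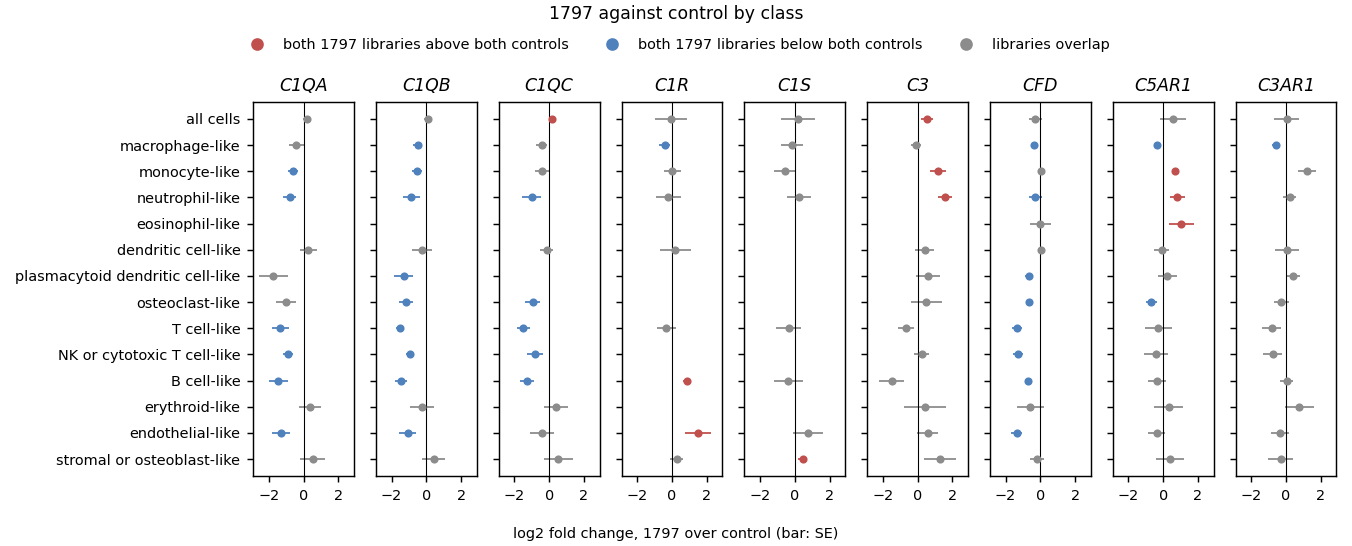
Log2 fold change of 1797 peptide over control peptide for each member in the sum of all cells and in each class where it was tested (2 libraries a group). Bars are 1 standard error, derived from edgeR's fold change and F statistic. Red points have both 1797 libraries above both controls, blue points both below, and grey points overlap. C3 in neutrophil-like cells lay at 1.60 and C1QB in T cell-like cells at -1.50.

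In the sum of all kept cells, which moves with cell make-up so that fewer cells of a type and less RNA per cell cannot be told apart, edgeR called 0 members (0% of 16650 genes, 1.62% at an unadjusted p under 0.05). DESeq2 called 0 members and 22 genes, or 0.132%. C1QA was at 106 and 109.5 CPM in the 1797 libraries and 76.7 and 108 CPM in the control libraries, C1QB at 112 and 125 CPM in the 1797 libraries and 118 and 103 CPM in the control libraries, and C1QC at 70.2 and 72.2 CPM in the 1797 libraries and 63.7 and 61.6 CPM in the control libraries. The log2 fold changes were 0.21, 0.081 and 0.17 (SE 0.23, 0.20 and 0.18), and only C1QC of these did not overlap. C3 was at 35.9 and 38.2 CPM in the 1797 libraries and 32.2 and 18.1 CPM in the control libraries, also without overlap, with a log2 fold change of 0.54 (SE 0.35). These were 2 of 9 members above both controls, against 12.8% of all genes.

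For most of the other 5 members the libraries of a group lay far apart. C1R was at 36.8 and 9.603 CPM in the 1797 libraries and 8.58 and 38.3 CPM in the control libraries, and C1S at 43.8 and 8.10 CPM in the 1797 libraries and 8.93 and 35.3 CPM in the control libraries, each high in 1797 library 1 and control library 2, the libraries with the most stromal cells. C5AR1 was at 115 and 327 CPM in the 1797 libraries and 80.4 and 224 CPM in the control libraries, and C3AR1 at 26.9 and 73.0 CPM in the 1797 libraries and 26.9 and 71.5 CPM in the control libraries, each high in library 2 of both groups, where neutrophil-like cells were most frequent. CFD was at 145 and 256 CPM in the 1797 libraries and 217 and 277 CPM in the control libraries. The log2 fold changes of C1R, C1S, CFD, C5AR1 and C3AR1 were -0.059, 0.18, -0.30, 0.56 and 0.041 (SE 0.92, 0.99, 0.37, 0.74 and 0.71), and the edgeR adjusted p of every member was 1.00. For these 5, C1QA and C1QB the sign turned when at least 1 library was left out.

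Genes most like each member were found by Pearson's r of log2 levels over the same 52 sums, which share libraries. C1QA and C1QB were followed most closely by LOC100624077 (r = 0.907 and 0.901), CD163 (0.820 and 0.817) and CD209 (0.811 and 0.815), and C1QC by LOC100624077 (0.895), APOE (0.791) and CD209 (0.779). C1R was followed by PDGFRL (0.855), ROR1 (0.851) and FMO1 (0.842), and C1S by SH3GL2 (0.944), CERCAM (0.942) and PTGDS (0.941), while C1R and C1S had r = 0.810 with each other. C3 had no close partner, with LOC110255267 (0.618), RNF128 (0.618) and LOC100520491 (0.605) at the top. CFD was followed by CSF2RB (0.920), AIF1 (0.871) and SIRPA (0.870). C5AR1 was followed by CXCL8 (0.929), CXCR2 (0.916) and LOC100525396 (0.915), and C3AR1 by LOC100624191 (0.822), LOC100517285 (0.781) and DHRS9 (0.761).

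Other complement genes were taken from a list of 36, of which 34 were among the genes of the count tables, and CR2 and ITGAX were not analysed here. In the 13 tested classes they gave 207 pairs of a gene and a class, 95 with a positive and 112 with a negative fold change. edgeR called 0 of them and 18 had an unadjusted p under 0.05, against 4.84% of pairs over all genes. Both 1797 libraries lay above both controls in 27 pairs and below in 45, against 14.3% and 19.3% over all genes. The 12 genes with the highest mean level in any tested class were led by CLU, a chaperone that blocks the terminal complex, at 1885 ± 328 CPM in macrophage-like cells.

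The regulators that protect host cells had different leading classes. CD46 averaged 1242 ± 158 CPM in dendritic cell-like cells, CD55 379 ± 24.3 CPM in neutrophil-like cells, and SERPING1, the C1 inhibitor, 163 ± 19.3 CPM in stromal cells, the class that led for its target C1R. C4BPA averaged 342 ± 84.6 CPM in neutrophil-like cells, but 2 RefSeq genes carry that symbol, so this level is uncertain. Among receptors, C5AR2 averaged 141 ± 53.5 CPM in neutrophil-like cells, CD93 334 ± 41.5 CPM in endothelial-like cells, ITGAM 118 ± 12.6 CPM in monocyte-like cells and ITGB2 214 ± 87.0 CPM in eosinophil-like cells. The pattern-recognition genes COLEC12 and FCN2 averaged 315 ± 112 CPM in stromal cells and 221 ± 162 CPM in endothelial-like cells, and C1QBP 83.0 ± 17.6 CPM in osteoclast-like cells. Of the terminal components, C9 averaged 44.4 ± 15.5 CPM in endothelial-like cells and C5 3.48 ± 0.775 CPM there, and C6, C7, C8A, C8B and C8G averaged at most 2.04 CPM in any tested class.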

How the data were processed

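Droplet libraries were analysed, 2 of 1797 peptide and 2 of control peptide, from the deposited tables of raw UMI counts per gene and cell barcode, with no normalization by the authors. The build was Sscrofa11.1 and Cell Ranger 5.0.0 was used, per the submitters' processing notes, whereas the file headers name cellranger 7.0.1; annotation and other settings are not given in the sources used here. Every barcode had at least 500 UMIs.

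Barcodes with under 200 genes or over 20% mitochondrial UMIs were removed, and scrublet removed 1938 called doublets (expected rate 0.1), leaving 48997 cells. scanpy 1.11.5 normalized them and picked 2000 variable genes without complement genes. From these, 30 principal components and a graph weighted by shared neighbours (15 neighbours a cell) were computed outside scanpy. leidenalg 0.10.2 clustered that graph at Leiden resolution 1.0. Clusters were named from marker lists by a scoring rule set after the clusters were seen. Counts were summed per library and class, and a class was tested where each library held 20 or more of its cells, using edgeR 4.0.16 (quasi-likelihood, TMM, filterByExpr, Benjamini-Hochberg over all genes of a class), with DESeq2 1.42.0 as an alternative. edgeR's test reports no standard error, so each SE is the absolute log2 fold change divided by the square root of the test's F statistic. The edgeR step was tested on simulated data. The smallest p that exact permutation of 2 and 2 libraries allows is 0.333, so none was run. Contrasts are given for each member in the sum of all cells and its 3 highest tested classes, with a few pairs added after their values were seen. The members and lists were chosen with earlier results of these data known. Replicate libraries were distinct (chi-square per degree of freedom 332 and 342). Other alternatives were left-out libraries, count filters, normalization, clustering settings, doublets, cell filters and thinning depth. Levels and shares are given as mean ± SD over the 4 libraries unless said to be pooled. Promoter motifs were not analysed here.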

Additional observations from a re-analysis of the deposited data

Results flagged for a closer look

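C5AR1 took opposite directions in 2 classes. Its log2 fold change of 1797 peptide over control peptide was 0.82 in neutrophil-like cells and -0.34 in macrophage-like cells. Both 1797 libraries lay above both controls in neutrophil-like cells, as for 6.99% of all genes tested there. Both lay below in macrophage-like cells, as for 25.2%. Within the IFIT2 and S100A12 neutrophil clusters the groups overlapped. Cluster make-up differed between libraries in both classes, and its part was not tested. In the class named macrophage-like at Leiden resolution 0.5 the value was 0.10, so the opposite direction was not seen there. Only 3861 genes were tested in that class, against 12437 in the main one, so these values do not cover the same cells. Neither value passed edgeR's test, and the difference between the classes was not tested.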

How the results depend on the processing

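With 2 libraries a group, single libraries set many signs. Over 36 fold changes of members and 502 alternatives, 462 kept their direction and side of the threshold, 37 reversed (25 with a library left out) and 3 passed the threshold with DESeq2, which called 1 member in B cell-like and 2 in T cell-like cells.

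Genes called by DESeq2 numbered 22 in all cells, 53 in B, 12 in NK or cytotoxic T, 39 in T, 20 in dendritic, 17 in endothelial, 96 in macrophage, 49 in monocyte, 7 in neutrophil, 10 in osteoclast, 15 in plasmacytoid dendritic and 3 in stromal classes, 103 in cluster 10 and 1 in cluster 12. Without a filter on low counts edgeR called 10 genes in B, 13 in NK or cytotoxic T, 29 in dendritic, 178 in endothelial (1 of them a member, CFD), 4 in eosinophil, 1 in erythroid, 36 in monocyte, 29 in neutrophil, 206 in osteoclast, 82 in plasmacytoid dendritic and 1 in stromal classes, and 2, 34 and 44 in clusters 10, 12 and 7. Same-numbered libraries did not deviate together (correlation -0.31), so the numbers are not shown to pair. With the replicate block, 1 gene was called in monocytes, 1 in neutrophils, 0 in plasmacytoid dendritic cells, 1 in cluster 12 and 21 in cluster 7. The crossed pairing, added after seeing the data, gave 1 in endothelial, 25 in eosinophil and 2 in plasmacytoid dendritic classes, and the stricter cell filter 0 in the last.

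With 1 library left out, genes called ranged over 0 to 7 in B, 0 to 18 in NK or cytotoxic T, 0 to 20 in T, 0 to 109 in dendritic, 0 to 22 in endothelial, 0 to 47 in eosinophil, 0 to 226 in erythroid, 0 to 10 in monocyte, 0 to 7 in neutrophil, 0 to 124 in osteoclast, 5 to 76 in plasmacytoid dendritic and 0 to 54 in stromal classes, and 0 to 1, 0 to 47 and 10 to 93 in clusters 10, 12 and 7. Members called in cluster 12 ranged over 0 to 1. Fold changes that reversed with a library left out ranged, in all cells, over -0.0025 to 0.49 (C1QA), -0.066 to 0.23 (C1QB), -1.23 to 1.40 (C1R), -1.39 to 1.502 (C1S), -0.85 to 0.11 (CFD), -0.48 to 1.48 (C5AR1) and -0.95 to 0.91 (C3AR1). In macrophages they ranged over -0.85 to 0.21 (C1QA) and -0.50 to 0.22 (C3), in dendritic cells over -0.59 to 0.81 (C1QA) and -1.19 to 0.51 (C1QB), and in erythroid cells over -1.07 to 0.23 (C1QB), -0.21 to 0.82 (C1QC) and -0.50 to 2.06 (C5AR1). C1R in stromal cells ranged over -0.11 to 0.83, C3 in plasmacytoid dendritic cells over -0.92 to 1.36, CFD in monocytes over -0.026 to 0.13 and C3AR1 in neutrophils over -0.15 to 0.45.

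Other reversals were C1QA in dendritic cells at Leiden resolution 0.5 (-0.83), at 2.0 (-0.83) and with doublets kept (-0.83). With the stricter cell filter C1QA (-0.25) and C1QC (-0.068) reversed in erythroid cells and C3AR1 in all cells (-0.020). With doublets kept C1QB in erythroid cells (0.16) and C3 in macrophages (0.30) reversed. At resolution 0.5 C3 (0.10) and C5AR1 (0.10) reversed in macrophages, but 3861 genes were tested in the class so named there, against 12437 in the main one. The replicate block reversed C1R (0.032) and C3AR1 (-0.0043) in all cells, and it changed no call of a member. The causes were not tested.

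At resolution 0.5 the macrophage-like class held 23.7% of C1QA, 22.5% of C1QB, 21.2% of C1QC and 6.66% of C3 UMIs. Shares of cells with a UMI follow the thinning depth: at 500 and 2000 UMIs they were 9.82% and 33.6% (C1R, stromal), 11.9% and 34.0% (C1S, stromal), 34.2% and 79.9% (CFD, monocytes), 48.0% and 75.3% (C5AR1, neutrophils) and 12.7% and 37.1% (C3AR1, neutrophils), and 11.09% at 500 UMIs for C3 in macrophages.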

Other observations

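A small unnamed cluster of 69 cells carried both neutrophil-leading genes and C1q. It held 2 and 9 cells of the 1797 libraries and 10 and 48 of the control libraries. C1QA was at 1200.2 and 971 CPM in the 1797 libraries and 886 and 1623 CPM in the control libraries, and C5AR1 at 960.2 and 2656 CPM in the 1797 libraries and 1816 and 1649 CPM in the control libraries. Another unnamed cluster, of 568 cells led by LYZ and MSR1, had C1QA at 248 and 265 CPM in the 1797 libraries and 189 and 182 CPM in the control libraries. Whether these clusters hold doublets was not tested.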
